A study of Sus scrofa with 30 samples.

Results

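The microRNA miR-21 and its isomiRs, the length variants of the same microRNA, were followed in the porcine endometrium. Members were the sequences of the annotated list of the study whose name has the root mir-21 exactly. They were counted by exact match in the deposited reads. This gave 18 of the 873 annotated sequences, out of 512939 distinct sequences deposited. Of the 18, 1 was canonical miR-21 and 17 were isomiRs. All 18 lie on the 5p arm of 1 hairpin, so that they share their source and are not replicates of each other. The opposite arm was not analysed here. In the RefSeq table of assembly Sscrofa11.1, MIR21 lies between PTRH2 and TUBD1, and 0 genes overlap it.

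Endometrium was collected from Hampshire x Duroc gilts aged 7 to 8 months from a single herd, 1 library per animal. Pregnant (P) gilts had been inseminated 12 and 24 h after detection of estrus, and cyclic (C) gilts were sampled on the same days (D) of the estrous cycle. The groups were PD12 (n = 5), PD16 (n = 5), PD20 (n = 6), CD12 (n = 4), CD16 (n = 5) and CD20 (n = 5). Conceptuses were flushed out up to D16 and dissected away on D20. The depth was 2029729 to 6402731 reads per library, and miR-21 members made up 374773 to 2764176 of them. The tissue is a mixture of cells, and a higher level per cell cannot be told apart from more cells of the type that holds the microRNA. P-values of group comparisons below measure the spread between animals of a group, and those of relations were taken over all libraries.

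A microRNA of the 5p arm is cut from its hairpin by 2 enzymes. DROSHA in the nucleus sets the 5' end and DICER1 in the cytoplasm the 3' end. Bases 2 to 8 form the seed, which pairs with target mRNAs, so a shift of the 5' end gives a new seed while a change at the 3' end leaves it as it is. Terminal nucleotidyltransferases can add bases after cutting that the genome does not encode, and PAPD5 is known to add adenine to the form of miR-21 that ends in C. The microRNA itself is abundant in many tissues, responds to inflammatory signals, and is known to repress PDCD4.

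The sequences below carry the findings, because they cover the main 3' ends and every 5' start, one for each seed. The seed is in capitals, and all are written as DNA, 5' to 3'. Positions at each end are counted from the canonical end, so that + means longer and - means shorter.
canonical miR-21: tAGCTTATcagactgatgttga
3' +1 (C added): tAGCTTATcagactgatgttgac
3' +2 (CT added): tAGCTTATcagactgatgttgact
3' -1 (A deleted): tAGCTTATcagactgatgttg
5' +1: gTAGCTTAtcagactgatgttga
5' -1: aGCTTATCagactgatgttga
5' -2: gCTTATCAgactgatgttga

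The members fell into 4 seeds, none of which was found at the seed position of any other listed sequence. The canonical start was shared by 8 members, the 5' -1 start by 4, and the 5' +1 and 5' -2 starts by 3 each. Members were between 18 and 26 nt long, and the canonical form had 22 nt. In every library 16 of the 18 were read. The form with 5' +1 and 3' +2 ends was read in 26 libraries and the 3' +4 form in 27.

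Almost all miR-21 kept its 5' end, and its 3' end was split between neighbouring positions. Over the 30 libraries the canonical start took 99.9% ± 0.0123 (SD, n = 30) of the reads of the members. The 5' -1, 5' +1 and 5' -2 starts took 0.0684% ± 0.00833, 0.0220% ± 0.00583 and 0.0152% ± 0.00240. Over all libraries these 3 starts had 18973, 6707 and 4513 templated reads, the forms outside the list included, so that the seeds other than the canonical one were rare. At the 3' end canonical miR-21 held 47.3% ± 5.16 of member reads and the 3' +1 form 43.9% ± 6.15. The 3' +2 form held 5.92% ± 1.75 and the 3' -1 form 2.72% ± 0.643. Each of the other 14 members averaged at most 0.0741%. The canonical form ranged from 37.2% to 63.5% over the libraries, and the 3' +1 form reached up to 55.5%.

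Canonical miR-21 was the most abundant annotated sequence in 15 libraries and the 3' +1 form in 8. In the other 7 libraries the first rank went to miR-10a-5p (4 libraries), miR-10b (2) or miR-143-3p (1). The 3' +2 form had a median rank of 10.5 (3 to 21) and the 3' -1 form of 18.5 (8 to 33). Both were thus within the first 33 of the 873 annotated sequences in every library.

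Molecules with different 5' starts did not carry the same 3' ends. Among reads that ended at 3' +1 or at the canonical 3' end, the share of 3' +1 was 48.1% ± 6.19 (SD, n = 30) for the canonical 5' start. It was 49.9% ± 7.51 for the 5' -1 start and 45.5% ± 10.02 for the 5' -2 start, but 2.41% ± 1.93 for the 5' +1 start. The share for the 5' +1 start lay below that of the canonical start in 30 of 30 libraries. The reverse was seen at the shorter end. Among reads that ended at 3' -1 or at the canonical 3' end, 3' -1 took 40.1% ± 5.52 for the 5' +1 start and 5.41% ± 0.877 for the canonical start, and was higher in 30 of 30 libraries. The 5' -1 and 5' -2 starts had 5.59% ± 1.93 and 7.60% ± 3.87. In reads, the 5' +1 start had 2554 at 3' -1, 3799 at the canonical 3' end, 93 at 3' +1 and 182 at 3' +2. Molecules that began 1 base earlier thus also tended to end earlier. The form with 5' +1 and 3' +1 ends is not in the annotated list. These shares are given as a description with no test, and a library held between 63 and 752 reads with the 5' +1 start.

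**Figure D1:**
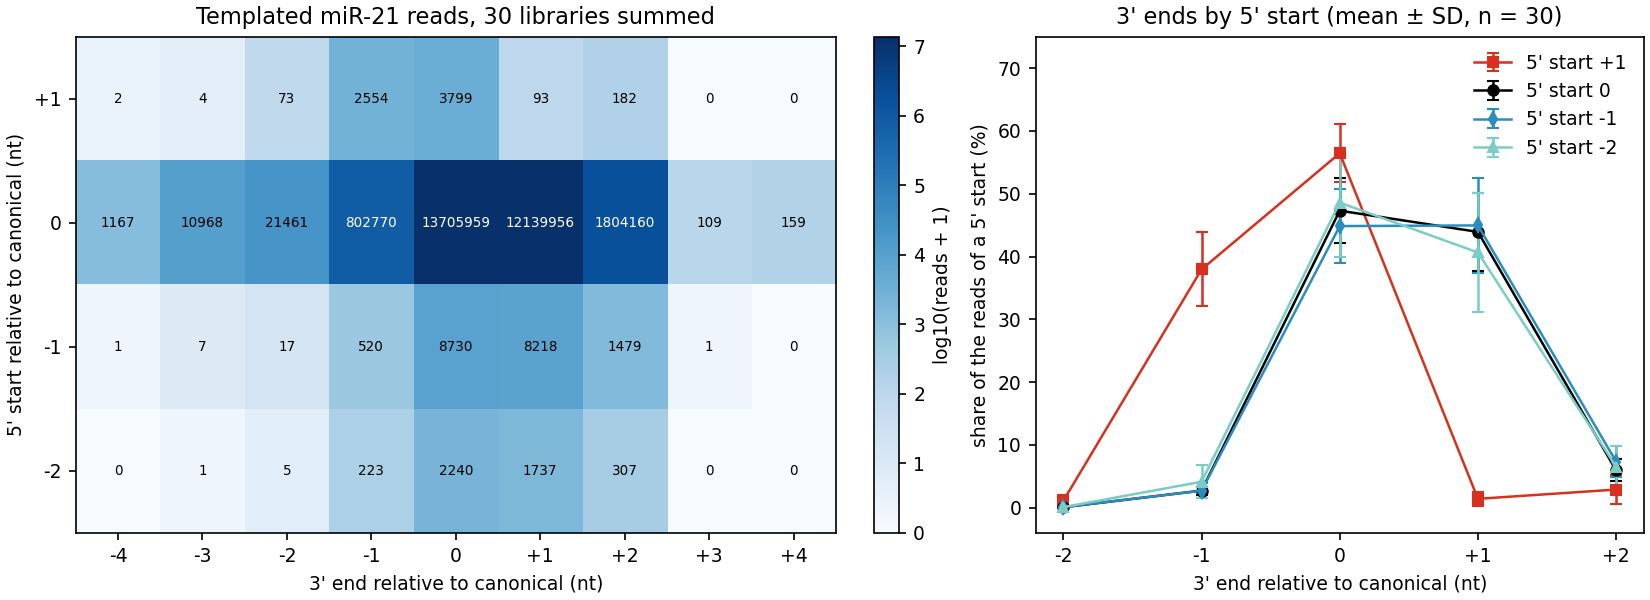
Left, templated miR-21 reads summed over the 30 libraries at each combination of 5' start and 3' end, in nt from the canonical ends, shaded by log10(reads + 1). Right, share (%) of the reads of each 5' start that ended at each 3' position, as mean and SD over the 30 libraries; the 5' +1 start has few reads at 3' +1 (93 in all), unlike the other starts.

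Some libraries stood apart before any group was compared. Levels are given in normalized reads, which are CPM relative to the annotated reads, with library sizes scaled by TMM, the trimmed mean of M-values, in edgeR. Library PD20 replicate 1 had the highest level of the stroma and smooth muscle microRNAs miR-143 and miR-145, at 395867 normalized reads against 151268 in the next library. The same library had the highest level of the muscle microRNAs (miR-1, miR-206 and miR-499; 3 of 5 roots of the list found, miR-133a and miR-133b not found), at 40185.9 against 16764.8 in the next and 1111.08 in the lowest. Of the muscle list, mir-1 held 90.9% of the reads and of the stroma list miR-143-3p 82.4%. Library PD20 replicate 4 had the lowest miR-21 of its group. Libraries PD20 replicate 3 and CD16 replicate 3 stood apart in base substitutions, which are given further on. Comparisons that rest on these libraries were also run without them.

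The tissue label was compared with markers. Epithelial microRNAs (the miR-200 family, miR-205, miR-203 and the miR-183 cluster) were found with 10 of 10 roots, 65 sequences and 17924.1 ± 4945.18 normalized reads (n = 30). Stroma and smooth muscle (2 of 2 roots) had 74557.1 ± 64641.8 and endothelial miR-126 had 3535.11 ± 781.699. Leukocyte microRNAs (miR-142, miR-150, miR-155 and miR-146a; 4 of 5 roots, miR-223 not found) had 258.256 ± 125.522 and erythrocyte microRNAs (3 of 3 roots) 1424.49 ± 916.165. The embryonic list had 0 of 5 roots by name, which would miss a sequence listed under an Ensembl gene name, so the count says nothing on whether such reads were present. The leukocyte sum ranged over groups from 144.584 ± 59.6056 in CD16 to 440.143 ± 93.0362 in CD20. Epithelial microRNAs, of which miR-200c was the most abundant with 25.8%, ranged from 12587.5 ± 2304.69 in CD20 to 20989.3 ± 5316.64 in PD16, with 19354.3 ± 4574.9 in PD20. Against that order, 3 of the 65 epithelial sequences were called lower in PD20 than in CD20 and 0 higher, beside 1.49% called over all sequences. All 3 were of miR-205, with log2FC of -4.86, -2.92 and -2.96 at mean levels of 5.91, 18.9 and 4.66 normalized reads, while the list had a median log2FC of 0.50. The roots were split on this comparison. Means of the abundant miR-200b, miR-200c and miR-182, and of miR-203 and miR-183, were higher in PD20. Means of miR-200a, miR-141, miR-429, miR-96 and miR-205 were higher in CD20, as with miR-141 at 139 ± 131 in PD20 and 370 ± 296 in CD20. The part of cell composition in the miR-21 values below was not tested.

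The first comparison asked whether the total of miR-21 differed between days and between pregnancy and the cycle. The summed level of the 18 members was similar over the days of pregnancy and was lowest in the cyclic D16 group, but no comparison passed the test. In normalized reads, the PD12 libraries had 296269, 286777, 739341, 207860 and 468790. The PD16 libraries had 188516, 638953, 291066, 485466 and 374643. In PD20 the lowest library had 201489, the median was 434920 and the highest had 535495. The pregnant groups covered one another almost completely, and PD12 replicate 3 was the highest library of all. In CD12 the libraries had 293022, 708313, 469873 and 396755. In CD16 they had 309568, 339568, 247544, 173724 and 248309, and in CD20 they had 206207, 287141, 180927, 451091 and 474671. The CD16 libraries lay close together at the low end, and their range overlapped with that of every other group.

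As means the order was CD12 with 466991 ± 176487, PD20 with 419514 ± 118546, PD12 with 399807 ± 212357, PD16 with 395729 ± 174318, CD20 with 320007 ± 136453 and CD16 with 263743 ± 64135.3. No neighbours in this order differed beyond their SD. On the log2 scale the fold change (log2FC) of the sum was 0.01 (SE 0.383) for PD16 and 0.07 (SE 0.367) for PD20 against PD12, with an adjusted p of 0.988 for both days jointly in the quasi-likelihood F-test of edgeR. In the cycle it was -0.74 (SE 0.422) for CD16 and -0.57 (SE 0.422) for CD20 against CD12, with a joint adjusted p of 0.402. For P vs. C the log2FC was -0.23 (SE 0.414, adjusted p = 0.888) on D12, 0.62 (SE 0.390, adjusted p = 0.600) on D16 and 0.42 (SE 0.397, adjusted p = 0.495) on D20, in the same test of edgeR. The later days were compared too, with 0.06 (adjusted p = 0.963) for PD20 vs. PD16 and 0.16 (adjusted p = 0.831) for CD20 vs. CD16. Without PD20 replicate 4 the log2FC on PD20 vs. CD20 was 0.56, on PD20 vs. PD12 0.21 and on PD20 vs. PD16 0.23, and none passed the test. With each library left out in turn, PD20 replicates 1 and 3 and CD16 replicate 3 included, the sum lay between 0.26 and 0.60 on PD20 vs. CD20 and between -0.90 and -0.49 on CD16 vs. CD12. It was 0.27 on PD16 vs. CD16 without PD16 replicate 2, and -0.32 on CD20 vs. CD12 without CD12 replicate 2. With all deposited reads as library size it was 0.15 on PD20 vs. CD20 and -0.20 on CD20 vs. CD12.

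**Figure D2:**
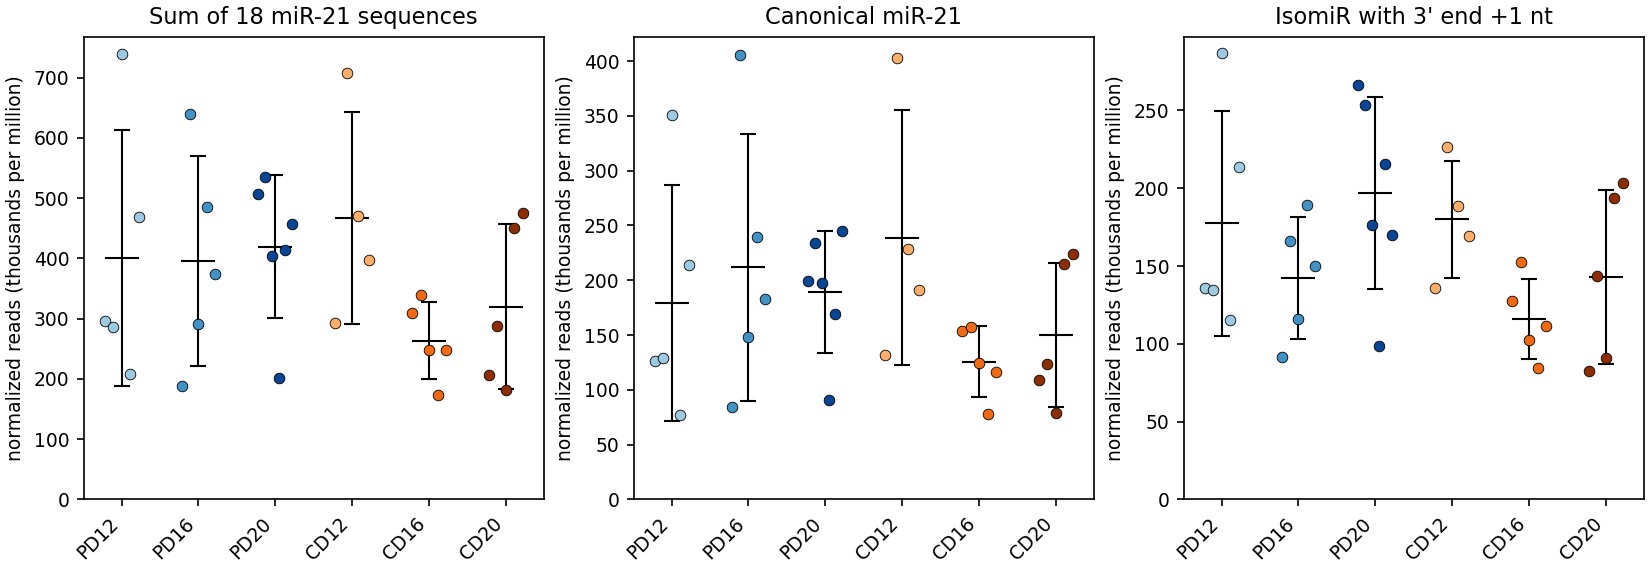
Normalized reads of the sum of the 18 members, of canonical miR-21 and of the 3' +1 form, by group; points are libraries, and the horizontal marks with error bars are the group mean and SD. The groups overlap in each panel, and the CD16 libraries have sums between 173724 and 339568 normalized reads.

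Taken one by one, 0 of the 18 members were called in any of the 9 comparisons, where a call is a Benjamini-Hochberg adjusted p under 0.05 over all 873 sequences in the quasi-likelihood F-test of edgeR together with an absolute log2FC over 1. The likelihood ratio test of edgeR and DESeq2 called 0 as well. The share of all 873 sequences called within pregnancy was 0.229% for PD16 and 0.802% for PD20 against PD12, and 0.573% for PD20 against PD16. Within the cycle it was 0.115% for CD16 and 0.458% for CD20 against CD12, and 0.458% for CD20 against CD16. For P vs. C it was 0% on D12, 0% on D16 and 1.49% on D20. A count of 0 in 18 members is near these shares. At an unadjusted p under 0.05 there were 5 members on PD16 vs. CD16, 1 on PD20 vs. PD16, 1 on PD20 vs. CD20 and 0 in the other 6 comparisons. Over all 873 sequences the same limit was passed by 95 on PD16 vs. CD16, 124 on PD20 vs. PD16 and 249 on PD20 vs. CD20. In the comparisons with 0 members it was passed by 53 for P vs. C on D12, by 163 in the joint test of pregnancy, by 209 in the joint test of the cycle and by 185 for CD20 against CD16. The 5 on D16 all had a shifted 5' end: 3 began at 5' +1 and 2 at 5' -2.

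The 4 abundant forms all had negative values on CD16 vs. CD12 and none passed the test. Canonical miR-21 had a log2FC of -0.82 (SE 0.425) on CD16 vs. CD12, the 3' +1 form -0.55 (SE 0.379), the 3' +2 form -1.14 (SE 0.505) and the 3' -1 form -0.72 (SE 0.465). Their joint adjusted p-values in edgeR were 0.332, 0.545, 0.214 and 0.507. On CD16 vs. CD12 the median log2FC of the 18 members was -0.83 and 0 of 18 were positive, beside a median of 0.03 over all sequences. On PD16 vs. CD16 it was 0.84 beside 0.03, with 17 of 18 positive, and on PD20 vs. CD20 0.33 beside -0.03, with 18 of 18 positive. The D12 comparison went the other way, with -0.16 beside 0.04 on PD12 vs. CD12 and 3 of 18 positive. The members come from 1 hairpin and correlate over libraries, so these counts are not 18 independent observations.

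The forms did not keep a fixed proportion from animal to animal. In normalized reads canonical miR-21 was 126239, 129203, 351192, 77264.4 and 213606 in PD12 and 84735.8, 405525, 148068, 239527 and 182552 in PD16. The 3' +1 form was 136033, 134529, 287060, 115321 and 213847 in PD12 and 91271, 166299, 115836, 189333 and 149840 in PD16. The library with the most canonical miR-21, PD16 replicate 2, had a 3' +1 level well inside the range of the others. Across the 30 libraries, log2 levels of the canonical and 3' +1 forms correlated with r = 0.84, and those of the canonical and 3' -1 forms with r = 0.95. All these values share the library and its scaling.

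The 3' +4 form was the longest member and 1 of the rarest, at 2.21 ± 1.75 normalized reads (SD, n = 30), 159 reads in all. In PD20 the lowest library had 0.671, the median was 4.00 and the highest had 5.40. In CD20 the libraries had 0.379, 0.353, 1.40, 2.23 and 2.38. The groups overlapped through PD20 replicate 4 alone, the library at 0.671. The log2FC was 1.54 (SE 0.599, adjusted p = 0.110 in edgeR). Without that library it was 1.77 (SE 0.551, adjusted p = 0.0453) and the form was the only member called. The same removal raised the calls over all 873 sequences from 13 to 116. With at most 13 reads of this form in a library, the counting error was large.

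Whether the difference between P and C changed from day to day was tested by interaction terms for the sum and for each of the 18 members, 57 tests in all. In edgeR 0 passed the threshold. The smallest p was 0.0110 and the smallest adjusted p 0.373.

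The next comparison asked whether the use of 3' ends shifted, with the reads of a form divided by those of canonical miR-21 in the same library. A ratio of this kind does not depend on the size of the library. The 3' +2 form was used most on D12 in both pregnancy and the cycle and less on later days, but no ratio passed the test after adjustment over 27 tests. In PD12 the 3' +2 ratio was 0.218, 0.130, 0.207, 0.147 and 0.149. In PD20 the lowest was 0.0634, the median 0.102 and the highest 0.140. The lowest PD12 library lay inside the PD20 range, and the other 4 lay above it. The CD12 libraries had 0.132, 0.129, 0.178 and 0.148, those of CD16 0.122, 0.138, 0.113, 0.0879 and 0.105, and those of CD20 0.0674, 0.0953, 0.0759, 0.120 and 0.139. In CD16 and in CD20 a single library reached into the CD12 range. The means of the pregnant groups were 0.170 ± 0.0395 on D12, 0.129 ± 0.0382 on D16 and 0.106 ± 0.0287 on D20. Those of the cyclic groups were 0.147 ± 0.0226, 0.113 ± 0.0186 and 0.0996 ± 0.0300 on the same days.

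For PD20 vs. PD12 the log2 difference of the 3' +2 ratio was -0.70 (exact two-sided permutation test, p = 0.0130, adjusted p = 0.292). For CD16 vs. CD12 it was -0.38 and for CD20 vs. CD12 -0.60 (exact permutation p = 0.0476 and adjusted p = 0.292 for each). The smallest p that 6 against 5 animals allow is 0.00433, and 5 against 4 allow 0.0159. Between P and C of the same day the 3' +2 ratio differed by 0.20, 0.16 and 0.09 on the log2 scale on D12, D16 and D20 (exact permutation p = 0.333, 0.468 and 0.719). The first was 0.10 without PD12 replicate 1 and the second 0.04 without PD16 replicate 5. Permuted only within runs of 12 title numbers, a split described further on, the PD20 vs. PD12 difference was -0.78 (exact permutation p = 0.00926, adjusted p = 0.250). In the cycle it was -0.49 for CD16 (exact permutation p = 0.0556, adjusted p = 0.300) and -0.36 for CD20 (exact permutation p = 0.111, adjusted p = 0.429) against CD12. CD12 had no library in the first run, so the CD16 and CD20 libraries of that run did not enter. The 18 assignments that remain allow no p under 0.0556, so neither of these tests in the cycle could pass the threshold.

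Group means of the 3' +1 ratio lay between 0.776 and 1.09. On D12, D16 and D20 of pregnancy it was 1.09 ± 0.248, 0.776 ± 0.238 and 1.06 ± 0.239, and on the same days of the cycle 0.824 ± 0.195, 0.934 ± 0.111 and 0.976 ± 0.178. The lowest library was PD16 replicate 2 at 0.410 and the highest PD12 replicate 4 at 1.49, both from pregnant animals. The largest difference was that of PD16 vs. PD12, at -0.52 on the log2 scale (exact permutation p = 0.0873, adjusted p = 0.307), and -0.31 without PD16 replicate 2. The 3' -1 ratio lay between 0.0498 ± 0.0109 in CD12 and 0.0641 ± 0.00483 in CD20. Its largest difference, CD20 vs. CD12, was 0.39 (exact permutation p = 0.0476, adjusted p = 0.292), and 0.25 without CD12 replicate 4. In all 27 comparisons the ranges of the groups overlapped.

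Beyond the annotated list, the libraries held many reads of miR-21 with bases that the hairpin does not encode. Such forms were left out of the annotated list by the study. In all 32858899 reads were placed on miR-21, whether templated, with a tail or with 1 substitution, and the members were 86.8% of them. Reads with an added tail of up to 3 bases were 10.7% and reads with 1 substitution 2.47%. Templated forms outside the list were 536 reads. The most frequent tailed forms are shown because they outnumber most members, with the added base in capitals.
3' +1 with A: tagcttatcagactgatgttgacA
canonical with A: tagcttatcagactgatgttgaA
3' +1 with C: tagcttatcagactgatgttgacC

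The 3' +1 form with an added adenine had 2082498 reads and was found in 30 of 30 libraries. At 26242.5 ± 15224.4 CPM of annotated reads (n = 30), 2 of the 18 members had more reads, canonical miR-21 and the 3' +1 form. It exceeded the templated 3' +2 form, which has the same length and differs in the last base, in 21 of 30 libraries. Canonical miR-21 with an added adenine had 733388 reads, and the 3' +1 form with an added C 402919. A base identical to the template at that place cannot be told apart from a longer templated form. So A after the 3' -1 end, C after the canonical end and T after the 3' +1 end do not appear as tails. Reads of canonical miR-21 can thus include 3' -1 molecules with an added adenine.

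The share of molecules with an adenine tail differed between ends. It was 13.1% ± 4.17 (2.98% to 23.5%, n = 30) of the molecules whose templated part ended at 3' +1 and 5.55% ± 2.08 of those that ended at the canonical position. After the 3' +2 end it was 0.00172% ± 0.00339, which rests on 25 reads. Tails of 2 adenines were 0.590% ± 0.223 after the canonical end and 0.0219% ± 0.00497 after 3' +1. The adenine tail was thus found after both abundant ends and hardly at all after the third.

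Between groups the adenine tail was compared as reads of the tailed over reads of the untailed form, in 18 tests chosen after the abundance of these reads was seen. On the 3' +1 end the ratio was 0.186 ± 0.0828 in PD12 beside 0.150 ± 0.0474 in CD12. On D16 it was 0.204 ± 0.0639 in pregnancy and 0.142 ± 0.0312 in the cycle, and on D20 it was 0.171 ± 0.0347 and 0.101 ± 0.0563. The mean was higher in the pregnant group on each day. In CD20 the libraries had 0.0313, 0.0600, 0.113, 0.174 and 0.127, and in PD20 the lowest had 0.118, the median was 0.178 and the highest 0.208. In 2 of the 5 CD20 libraries the ratio lay inside the PD20 range. The log2 difference on PD20 vs. CD20 was 0.97 (exact two-sided permutation p = 0.0346, adjusted p = 0.571), and none of the 18 tests passed the threshold. Without CD20 replicate 1 that difference was 0.60. On PD12 vs. CD12 it was 0.27, and 0.04 without PD12 replicate 3. On the canonical end the group means ran from 0.0437 ± 0.0267 in PD16 to 0.0729 ± 0.0377 in CD20. The largest difference there was that of PD16 vs. CD16, at -0.70 (exact permutation p = 0.0952, adjusted p = 0.571).

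**Figure D3:**
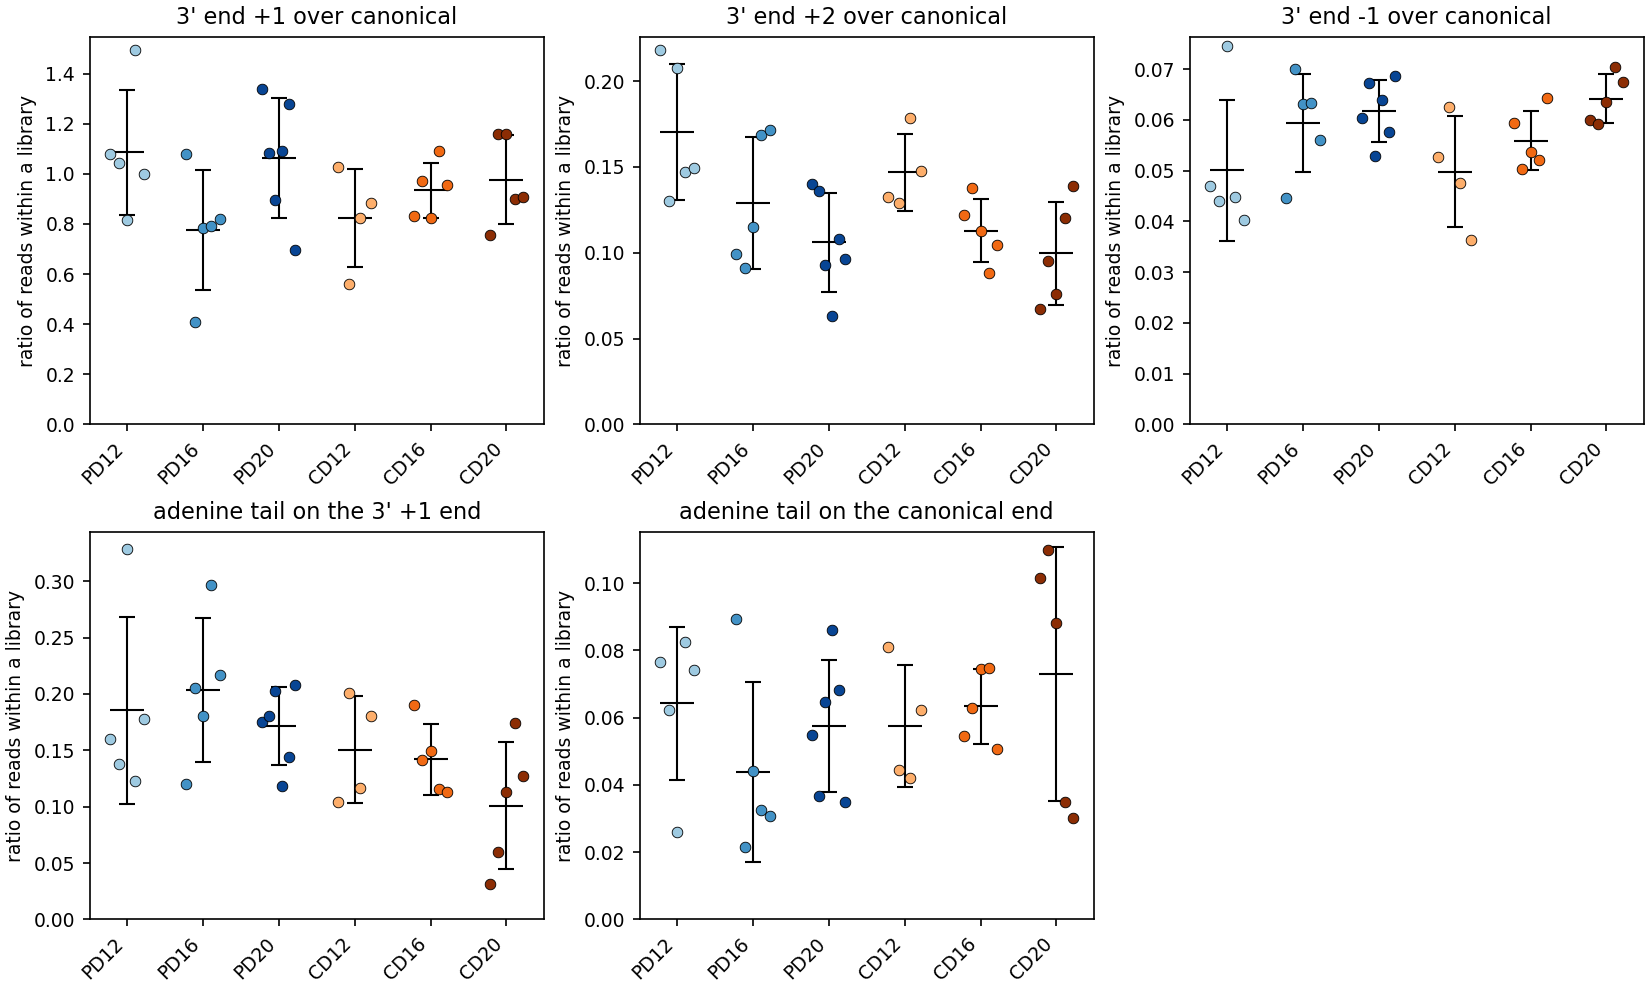
Ratios of reads within a library, by group: the 3' +1, 3' +2 and 3' -1 forms over canonical miR-21, and the adenine-tailed over the untailed form for the 3' +1 and the canonical end; points are libraries, and marks with error bars are the group mean and SD. The 3' +2 ratio is highest in PD12 (0.170) and CD12 (0.147), and the adenine tail on 3' +1 is lowest in CD20 (0.101), with overlapping ranges.

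The adenine tails of the 2 ends moved in opposite directions with the level of miR-21 from library to library. Against the log2 of the summed level, the log2 ratio on the canonical end had r = -0.76 (permutation p = 1e-05, the smallest that 100000 resamples can give; adjusted p = 3e-05 over 6 relations; rho = -0.76, with the same smallest p, adjusted p = 6e-05). The ratio on the 3' +1 end had r = 0.63 (permutation p = 1e-04, adjusted p = 0.0002; rho = 0.68, permutation p = 3e-05, adjusted p = 6e-05). The 2 ratios had r = -0.67 with each other (permutation p = 1e-05, adjusted p = 3e-05; rho = -0.71, permutation p = 2e-05, adjusted p = 6e-05). Without the 2 libraries farthest from the median of the first measure, r was -0.73, 0.58 and -0.65, and with group means removed it was -0.83, 0.69 and -0.71. These relations were chosen after the values were seen, on the same libraries. The level and the first ratio share the canonical reads. With the level of the form outside the ratio, r was -0.60 (permutation p = 0.00044) for the canonical end and 0.60 (permutation p = 0.00034) for the 3' +1 end.

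Within the runs of 12 title numbers, r between level and the tail on the canonical end was -0.82, -0.85 and -0.48 in the first, the second and the third run. For the tail on the 3' +1 end it was 0.61, 0.86 and 0.47, and between the tails -0.77, -0.82 and -0.38. The sign was the same in each run and the third run gave the weakest relations.

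The levels behind these ratios show which form moved. In CPM of annotated reads, canonical miR-21 varied with a coefficient of variation of 38.3% and its adenine-tailed form with 28.6%, and the highest library held 2.60 times the lowest for the tailed form. The 3' +1 form varied with 27.5%, its adenine-tailed form with 58.0%, and the highest library held 23.2 times the lowest for the tailed form. That figure rests on CD20 replicate 1, at 3319 CPM, and was 7.83 without it, while the coefficient of variation was 54.9% without it and 49.1% without PD12 replicate 3. The tailed canonical form was thus the steadier of its pair and the tailed 3' +1 form the more variable of its pair.

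**Figure D4:**
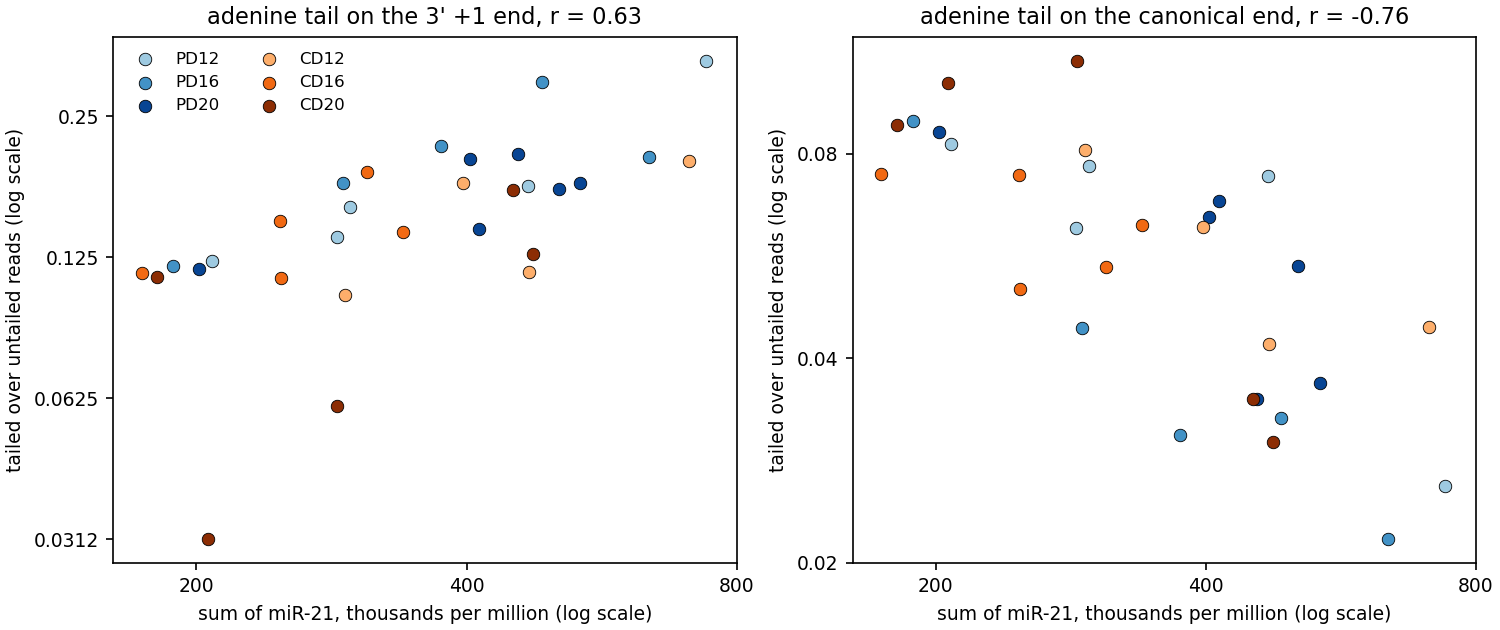
Adenine-tailed over untailed reads against the summed miR-21 level in each of the 30 libraries, on log axes, for the 3' +1 end and the canonical end, with colours for groups. The ratio rises with the level on the 3' +1 end (r = 0.63) and falls on the canonical end (r = -0.76).

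The other 3 relations were of the level with the ratios of templated forms to canonical miR-21. Canonical reads are part of the level and divide all 3 ratios, and the forms above them are in the level too. Level and ratio are thus not independent, and no level without these reads was used here. For the 3' +2 ratio r was 0.51 (permutation p = 0.00385, adjusted p = 0.00577; rho = 0.51, permutation p = 0.00467, adjusted p = 0.00700), and 0.42 without the 2 farthest libraries. Within runs it was 0.53, 0.62 and 0.19. For the 3' +1 ratio r was -0.49 (permutation p = 0.00565, adjusted p = 0.00678; rho = -0.41, permutation p = 0.0252, adjusted p = 0.0303). It was 0.51 in the first run and -0.75 and -0.62 in the others, so this relation did not hold within every run. For the 3' -1 ratio r was 0.31 (permutation p = 0.0912, adjusted p = 0.0912), while rho was 0.38 (permutation p = 0.0410, adjusted p = 0.0410), so that the rank correlation passed the threshold and r did not.

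Reads with 1 substitution split by library number. The titles number the libraries across groups, and runs of 12 consecutive numbers held 8, 12 and 10 libraries. The labels speak of 3 pools for multiplexing but do not say which library was in which, so the runs are not called pools. A substitution is written as the canonical base, its position counted from 1 at the canonical 5' end, and the base read. T20C was read at 0.997% ± 0.0323 (0.948% to 1.04%) of the untailed reads that began at the canonical start and ended at 3' -1 or later in the first run, 0.416% ± 0.0196 (0.379% to 0.444%) in the second and 1.35% ± 0.0478 (1.27% to 1.42%) in the third. The 3 ranges did not overlap. T8C lay at 0.188% ± 0.0222, 0.436% ± 0.0473 and 0.133% ± 0.0143, highest where T20C was lowest.

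A12G and T5C did not follow the runs but 2 libraries. In PD20 replicate 3, A12G was 0.00729% and T5C 0.0143%, and in CD16 replicate 3 they were 0.0120% and 0.0111%. The other libraries of all runs lay at or above 0.0956% for T5C and 0.0984% for A12G. The summed miR-21 level itself differed little between the runs, with means of 333698 ± 126610, 384641 ± 205619 and 399621 ± 98000.6 normalized reads. CD12 had no library in the first run.

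**Figure D5:**
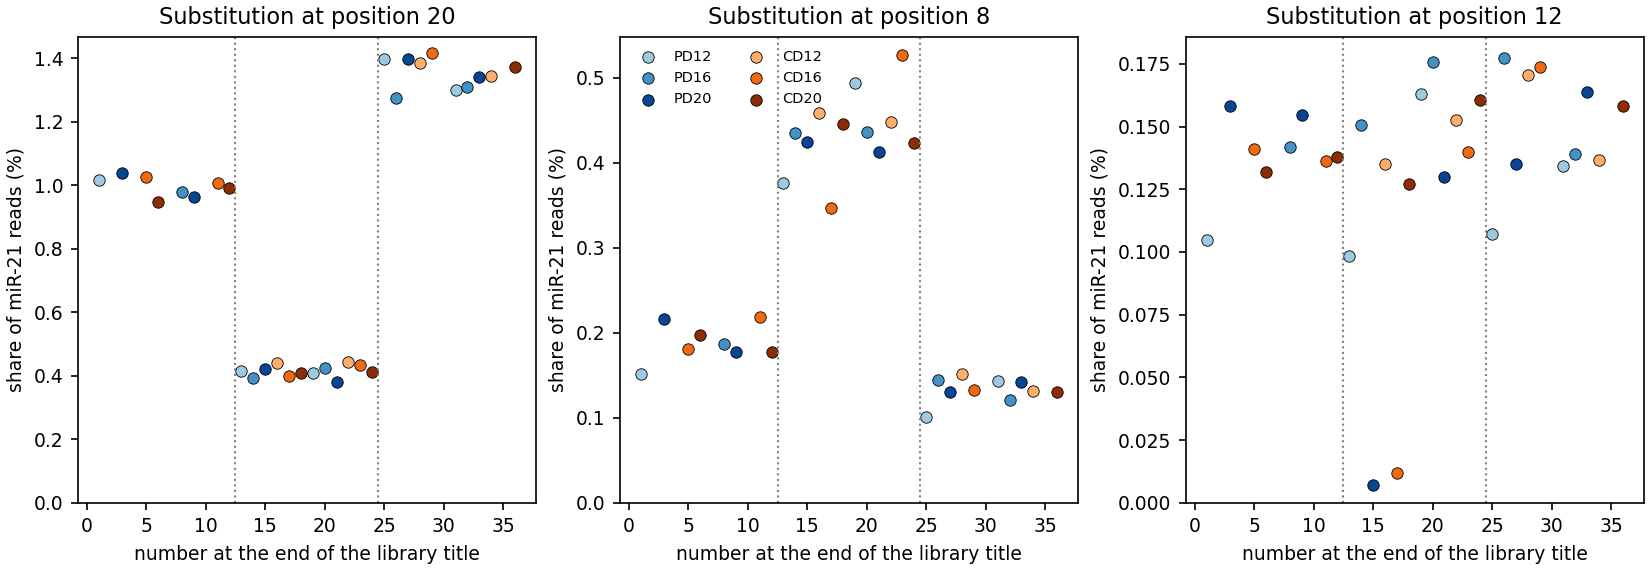
Percent of miR-21 reads with the substitution T20C, T8C or A12G in each library, against the number at the end of the library title, with dotted lines between runs of 12 numbers and colours for groups. T20C forms 3 separate levels near 0.997%, 0.416% and 1.35%, T8C is highest in the second run, and PD20 replicate 3 and CD16 replicate 3 are low in A12G.

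Among canonical microRNAs of the list, those whose log2 level was most like that of summed miR-21 over the 30 libraries were miR-664-3p (r = 0.78), miR-30a-3p (0.78), miR-28-3p (0.73), miR-30c-3p (0.71) and miR-30e-3p (0.68). They were the first 5 of 128 mature sequences with a mean of at least 10 normalized reads. Of the 5, miR-30c-3p was the most abundant at 398 ± 228 normalized reads and miR-664-3p the rarest at 17.6 ± 8.42. The median r of the 128 was -0.05, and the lowest was that of miR-99b, at -0.88. Since miR-21 is 36.6% ± 11.7 of annotated reads, its level bears on the scaling of all others. With miR-21 left out of the library size, miR-101 took the place of miR-30e-3p. The 3 sequences most abundant after miR-21 were miR-10b, miR-143-3p and miR-10a-5p, at 62649.3 ± 50407.6, 61441.7 ± 57090.4 and 51895.4 ± 51473.6 normalized reads.

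Other microRNAs linked to inflammatory signalling were described beside miR-21, from a list of 8 roots (miR-146a, miR-146b, miR-155, miR-132, miR-212, miR-221, miR-222 and miR-31). All 8 were found, with 30 sequences and 841.193 ± 304.042 normalized reads in sum. Over all 873 sequences the calls numbered 2, 7 and 5 for PD16 vs. PD12, PD20 vs. PD12 and PD20 vs. PD16, 1, 4 and 4 in the same order of the cycle, and 13 for P vs. C on D20. The difference between this list and the miR-21 members was not tested. Against CD12, 3 of 30 rose and 0 fell in CD20, and against CD16 2 rose in CD20. PD20 against either earlier day and CD16 against CD12 had 1 that rose in each comparison. PD16 against PD12 and PD20 against CD20 had 1 that fell in each, and for P vs. C on D12 and D16 0 were called. The sequence named ssc-mir-146b, of a family induced by NF-kB that restrains its own pathway, had a log2FC of 2.57 (SE 0.419, adjusted p = 0.00510 in edgeR) on PD20 vs. PD16. Against PD12 it had 1.50 (SE 0.399) in PD20 and -1.07 (SE 0.410) in PD16, with a joint adjusted p of 0.00929 in edgeR. The one that fell on PD20 vs. CD20 was a miR-146a sequence listed under its mouse and rat names, with a log2FC of -1.99 (SE 0.444, adjusted p = 0.0368 in edgeR) at a mean of 2.78 normalized reads. The sequence named ssc-miR-146a-5p rose by 1.88 (SE 0.387, adjusted p = 0.0251 in edgeR) on CD20 vs. CD16. That comparison had 4 calls over all sequences, and 0 without CD16 replicate 1, 2 or 5 or without CD20 replicate 2. Blocking on replicate number left 0 as well. Of miR-212, which is made from the same transcript as miR-132, both sequences rose on CD20 vs. CD12, by 3.46 (SE 0.674) and 4.42 (SE 0.907), from a low level of 9.20 ± 7.87 normalized reads over all libraries. Of the 4 calls over all sequences there, 0 were left without CD20 replicate 2 and with the block. Tested as single contrasts rather than jointly with D20, PD16 vs. PD12 and CD16 vs. CD12 had 0 calls each over all sequences. Likewise 0 calls were left on PD16 vs. PD12 without PD12 replicate 5, and on CD16 vs. CD12 without CD12 replicate 2 or 4, without CD16 replicate 2, without CD20 replicate 2 and with the block. The list had a median log2FC of 1.00 on CD20 vs. CD16, beside -0.03 over all sequences, where the sum of miR-21 had a log2FC of 0.16. The leukocyte list, of which miR-146a-5p was 51.6%, moved the same way, from 144.584 ± 59.6056 normalized reads in CD16 to 440.143 ± 93.0362 in CD20, and endothelial miR-126 went from 3197.28 ± 610.052 to 4604.22 ± 293.045. In PD12, PD16 and PD20 the leukocyte list had 190.444 ± 67.1831, 233.494 ± 81.7872 and 311.929 ± 116.014 normalized reads. Endothelial miR-126 had 3225.64 ± 490.056, 3406.05 ± 149.944 and 3913.04 ± 605.679 in the same groups. The part of these markers in the values of the list was not tested.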

How the data were processed

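Small RNA of the endometrium was sequenced, 30 libraries. Per the methods of the study, the authors dropped reads with bases of low quality and removed adapters. They discarded reads under 17 nt or with unknown bases, and collapsed identical reads. The deposited values are raw counts of reads per distinct sequence, not aligned or normalized. The annotated list was made by the authors and was used for names and sequences only. Its sequences were matched exactly, and ends were read from the offset to canonical miR-21. No columns of other samples were present.

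Library size was the sum of annotated reads with TMM scaling in edgeR 4.0.16 (R 4.3.3), with a prior count of 0.125. In each status, D12 was compared with both later days at once by the quasi-likelihood F-test. D20 vs. D16 was a single contrast, as was P vs. C, for which each day was fitted alone. Sequences with an adjusted p under 0.05 and a log2FC beyond 1 in size were called. The SE is the log2FC divided by the square root of F. For the sum, the members were replaced by 1 row. Ratios were compared on the log2 scale by exact two-sided permutation, and relations by 100000 resamples (scipy 1.17.1). Likeness used log2(normalized reads + 1). Tails of up to 3 bases were counted after 3' ends at -1 or longer. The tests were checked on simulated data. Members and lists were chosen with earlier results of these data known, and the tests of adenine tails, the relations and the permutation within title runs after values were seen. Alternatives were the likelihood ratio test, DESeq2 1.42.0, RLE, other library sizes, a minimum mean of 10 CPM, 1 fit of all libraries, single contrasts, the replicate number as a block, title runs, medians, and each library left out. Named sequences were canonical miR-21, its 3' +1, 3' +2 and 3' -1 forms, any member called, the 5 most alike mature sequences, and the called members of the inflammation list. Other rare members are named only where counts were small.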

Additional observations from a re-analysis of the deposited data

Results flagged for a closer look

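In 60 groups of 4 to 6 libraries the highest and lowest library was compared with the rest by Dixon's criterion, and 8 stood out. Chance flags about 1 in 20 groups. Library PD20 replicate 4 had the lowest summed miR-21 of its group, 201489 normalized reads, and the lowest canonical miR-21, 90595.1. In PD12 replicate 3, the library with the highest sum, the 3' -1 form over canonical miR-21 was the highest of its group at 0.0744, and the adenine tail on the canonical end was the lowest at 0.0259. Substitution A12G was lowest in PD20 replicate 3 (0.00729%) and CD16 replicate 3 (0.0120%), as was T5C (0.0143% and 0.0111%). The part of library preparation in these values was not tested. Outside the annotated list, the adenine-tailed 3' +1 form had 26242.5 CPM (scaled to annotated reads).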

How the results depend on the processing

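No summed level, ratio or adenine tail passed its threshold under any alternative run, and no member was called except the 3' +4 form on PD20 vs. CD20 without PD20 replicate 4, so that the count of members called there ran from 0 to 1 over the libraries left out. For the sum, 84 of 90 values from alternatives other than leaving a library out kept their direction. On PD16 vs. PD12 it turned to -0.00899 with DESeq2, to -0.00900 with RLE, to -0.0705 with a mean of at least 10 CPM and to -0.0213 in 1 fit of all libraries. With all deposited reads as library size it turned to -0.0388 on PD20 vs. PD12 and to -0.0429 on PD20 vs. PD16. With medians, the log2 difference of the 3' +1 ratio turned to 0.0630 on PD20 vs. PD12 and to -0.0744 on CD20 vs. CD16, that of the 3' -1 ratio to -0.0227 on PD20 vs. PD16, and that of the adenine tail on the 3' +1 end to 0.151 on PD20 vs. PD12. Within title runs the 3' -1 ratio turned to 0.0124 on PD12 vs. CD12 and the adenine tail on the canonical end to -0.377 on CD20 vs. CD12. Such comparisons with CD12 leave out the libraries of the first run, where CD12 had none. For CD20 these were replicates 1 and 2, whose ratios of 0.102 and 0.110 were the highest of the group, beside 0.0882, 0.0348 and 0.0301. The cause of the other turns was not tested, and their values lie near 0 beside the spread between animals.

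The replicate numbers did not pair the animals: deviations from group means correlated with a median r of -0.04 (-0.62 to 0.63) for the same number and 0.00 for other numbers. With the replicate number as a block, no member was called, and the sum had a log2FC of -0.76 on CD16 vs. CD12, 0.54 on PD16 vs. CD16 and 0.46 on PD20 vs. CD20. Under the block the 3' +1 ratio turned to 0.0803 on PD20 vs. PD12, the 3' -1 ratio to 0.0683 on PD12 vs. CD12, the adenine tail on the 3' +1 end to 0.0216 on CD16 vs. CD12 and that on the canonical end to 0.00248 on PD20 vs. PD12.

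With single libraries left out, the sum ranged from -0.204 to 0.382 on PD16 vs. PD12, -0.0886 to 0.460 on PD20 vs. PD12, -0.0861 to 0.306 on PD20 vs. PD16, -0.614 to 0.0427 on PD12 vs. CD12 and -0.0250 to 0.396 on CD20 vs. CD16. With no change of sign it ranged from 0.266 to 0.801 on PD16 vs. CD16 and -0.762 to -0.324 on CD20 vs. CD12. The 3' +1 ratio ranged from -0.131 to 0.0858 on PD20 vs. PD12 and -0.0157 to 0.139 on CD20 vs. CD16, the 3' +2 ratio from -0.0329 to 0.234 on PD20 vs. CD20, and the 3' -1 ratio from -0.154 to 0.118 on PD12 vs. CD12 and -0.0327 to 0.129 on PD20 vs. PD16. The adenine tail on the 3' +1 end ranged from -0.172 to 0.183 on PD20 vs. PD12 and -0.212 to 0.104 on CD16 vs. CD12, and with no change of sign from 0.605 to 1.22 on PD20 vs. CD20. That on the canonical end ranged from -0.0280 to 0.407 on PD12 vs. CD12, -0.428 to 0.00248 on PD20 vs. PD12, -0.179 to 0.287 on CD20 vs. CD16 and -0.00259 to 0.464 on CD20 vs. CD12.

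Calls over all 873 sequences depended on the tool. On PD20 vs. CD20 the quasi-likelihood F-test called 13, the likelihood ratio test 124, DESeq2 131, and 1 fit of all libraries 98. On CD20 vs. CD16 the counts were 4, 56, 75 and 64, and on PD20 vs. PD12 7, 46, 46 and 18. Without PD16 replicate 1 the calls on PD16 vs. CD16 went from 0 to 36, without CD20 replicate 3 those on CD20 vs. CD16 from 4 to 36, without PD12 replicate 3 those on PD20 vs. PD12 from 7 to 21, and without CD20 replicate 4 or 5 those on PD20 vs. CD20 from 13 to 104 or 59, with 0 members among them. Calls also fell: over all libraries left out, the counts ran from 0 to 36 on CD20 vs. CD16, 0 to 10 on CD20 vs. CD12, 0 to 8 on CD16 vs. CD12, 0 to 15 on PD16 vs. PD12, 1 to 9 on PD20 vs. PD16, 2 to 21 for PD20 against PD12 and 5 to 116 on PD20 vs. CD20 (116 without PD20 replicate 4). With the replicate number as a block they were 0 in the cycle, 5 for P vs. C on D20 and, within pregnancy, 1 for PD16 against PD12 and 3 for PD20 against either earlier day. The relation of the level with the 3' -1 ratio passed the threshold by rank (rho = 0.38), with group means removed (r = 0.54) and with run means removed (r = 0.36). Of the 5 most alike sequences, 4 were shared with all deposited reads as library size, where miR-92a (r = 0.63) took the place of miR-30c-3p (r = 0.59). Depth limits what could be detected for the 5' isomiRs, with 63 to 752 reads per library for the 5' +1 start and 72 to 545 for the 5' -2 start.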
